A study of Mus musculus with 8 samples.

Results

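The array used here carried probes for long intergenic noncoding RNAs (lincRNAs) that are named by a genomic interval and a strand, in place of a gene. Every probe that was no control and whose identifier had the form of a chromosome, a start, an end and F (forward strand) or R (reverse strand) was taken, on mm9 coordinates. The files held 3229 such intervals. The 136 on chromosome X were left out, none lay on chromosome Y, and 3093 intervals with 4275 probes of 60 bases remained, of 36163 features in all (a feature is 1 gene or 1 interval). The choice used identifiers and positions only, with no measured value. The cells were macrophages of mouse pancreas tumours, isolated by flow cytometry, and their RNA was measured on 8 one-colour arrays, 1 sample an array: 4 samples whose titles say High (MHCII-high, much MHC class II on the surface) and 4 whose titles say Low (MHCII-low). All 8 came from female mice of a strain written FvBn, aged 8 to 10 weeks, that had been implanted with tumours. The genotype is labelled as not provided, and the series' design text names wild-type, KPC and FLT3-CRE/LSL-YFP mice without assigning these samples. The tumour line, the other sorting gates and whether each sample is a separate mouse are not given in the sources used here, so p-values measure only how these samples vary, which may be technical variation. Each group held the label numbers 20435, 20436, 20439 and 20442 once, and values below are given in that order.

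LincRNAs are transcripts without a long open reading frame, made from DNA between protein-coding genes. Many were first mapped as intervals carrying the histone marks of active promoters and of transcribed gene bodies. Some act in the nucleus on nearby genes, others in the cytoplasm, and for most no role is known. In macrophages, several lincRNAs are switched on by inflammatory signals beside the immune genes that respond to the same signals. An interval probe reports hybridisation to 60 bases inside an interval and does not by itself show a separate transcript: an extended untranslated end or an intron of a neighbouring gene gives the same signal.

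The probes below belong to intervals on which the results turn, each written 5′ to 3′ as in the scanner files, with G and C in capitals because detection followed the share of these bases. The names refer to the interval, and the positions are those of the probe on mm9. The first set gives the brightest probe of intervals that differed between the groups.
chr5:144517700-144526071, higher in MHCII-high, reverse strand, probe at chr5:144525536.0-144525595.0: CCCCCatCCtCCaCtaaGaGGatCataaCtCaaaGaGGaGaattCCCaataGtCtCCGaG
chr14:77261377-77274982, higher in MHCII-high, forward strand, probe at chr14:77274863.0-77274922.0: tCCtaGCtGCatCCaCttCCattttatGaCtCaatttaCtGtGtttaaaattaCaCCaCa
chr2:32960372-32986870, lower in MHCII-high, reverse strand, probe at chr2:32960373.0-32960432.0: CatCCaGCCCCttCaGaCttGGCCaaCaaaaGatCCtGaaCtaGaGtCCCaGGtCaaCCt
chr15:10697243-10699102, lower in MHCII-high, forward strand, probe at chr15:10699043.0-10699102.0: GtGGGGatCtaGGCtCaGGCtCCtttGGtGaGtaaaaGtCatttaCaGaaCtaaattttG
chr4:94719930-94825776, lower in MHCII-high, forward strand, probe at chr4:94813832.0-94813891.0: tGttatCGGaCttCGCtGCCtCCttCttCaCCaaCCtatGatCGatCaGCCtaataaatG
The second set gives both strands of 3 intervals, to show what a strand comparison sets side by side. The pair from chromosome 12 shares 31 bases, read from opposite strands, and the other pairs do not overlap.
chr12:9117250-9128800, forward strand, probe at chr12:9125280.0-9125339.0: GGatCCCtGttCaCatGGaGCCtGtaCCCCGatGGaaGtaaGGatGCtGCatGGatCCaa
chr12:9117250-9128800, reverse strand, probe at chr12:9125251.0-9125310.0: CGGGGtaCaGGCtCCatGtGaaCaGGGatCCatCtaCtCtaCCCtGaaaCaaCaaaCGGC
chr11:6421951-6429173, forward strand, probe at chr11:6427408.0-6427467.0: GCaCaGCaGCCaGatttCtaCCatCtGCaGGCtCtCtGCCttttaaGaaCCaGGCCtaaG
chr11:6421951-6429173, reverse strand, probe at chr11:6428056.0-6428115.0: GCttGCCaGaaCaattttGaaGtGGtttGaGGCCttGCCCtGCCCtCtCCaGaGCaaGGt
chr4:146965675-146979325, forward strand, probe at chr4:146968056.0-146968115.0: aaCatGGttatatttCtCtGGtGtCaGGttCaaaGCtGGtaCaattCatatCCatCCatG
chr4:146965675-146979325, reverse strand, probe at chr4:146967990.0-146968049.0: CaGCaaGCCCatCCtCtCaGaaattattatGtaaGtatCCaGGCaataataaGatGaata
The last is the probe of the brightest interval, with 36 G or C bases out of 60.
chr17:39982023-39983277, forward strand, probe at chr17:39982865.0-39982924.0: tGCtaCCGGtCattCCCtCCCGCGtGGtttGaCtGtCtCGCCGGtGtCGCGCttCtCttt

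The intervals ranged from 62 to 538251 bp, with a median of 7328 bp and quartiles of 707 and 21226 bp. Of the 3093, 2154 had a single probe, the most was 8, and 812 had probes on both strands. A further 1178 had forward probes only and 1103 reverse probes only. The intervals are not all separate: 1679 overlapped another interval, and the 3093 merged into 2050 stretches of genome. The word intergenic held for most of them by the array's own probes. A probe of a protein-coding gene lay inside 230 intervals (7.44%), and a probe of any named gene, coding or noncoding, inside 562 (18.2%). The median distance to the nearest probe of a tested protein-coding gene was 24389 bp, and 557 intervals had none within 100 kb. Exons, introns and UTRs on mm9 were not used here, so an interval's place is given by these probe distances.

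Most interval probes gave signal in the sorted macrophages. Taking the brightest probe of an interval, 2449 of 3093 (79.2%) were well above background, by the scanner software's mark, on 4 or more of the 8 arrays. On all 8 arrays 2119 intervals (68.5%) passed and on none 415 (13.4%), with 330 on 4 to 7 arrays and 229 on 1 to 3. By array the share was 77.5, 78.9, 78.4 and 78.6% in MHCII-high and 79.6, 80.7, 77.0 and 73.5% in MHCII-low. The groups overlapped, with the array low 20442 the lowest. The means were 78.4 ± 0.589% and 77.7 ± 3.18% (SD, n = 4 each), a difference of 0.655 points (exact permutation test, two-sided, p = 0.8, smallest possible 0.0286). At the edge of the rule, the dimmest interval kept was chr14:77261377-77274982, with a mean log2 level of -6.41, and the next was chr1:69531191-69570566, at -6.00 and marked on 2 arrays of each group. The brightest intervals not kept were chr13:74521146-74528671 at -5.06, marked on 3 arrays, and chr9:89159907-89160815 at -5.17, marked on 2.

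Levels are log2 processed signals relative to the 75th percentile of the array, so 0 is a bright probe. The 4275 interval probes had a median level of -2.97, against -1.82 for 29638 probes of RefSeq mRNAs, -4.49 for 2477 of RefSeq noncoding RNAs and -5.0 for 2549 of predicted noncoding RNAs. In the same order, 76.1, 80.2, 59.1 and 54.2% of probes were well above background on 4 or more arrays. Forward and reverse interval probes were alike, at 76.0% of 2143 and 76.2% of 2132. The median G + C of the probes was 45% for intervals, 43.3% for mRNAs and 41.7% for both noncoding classes.

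Detection of interval probes rose steeply with their G + C. Of 523 probes with up to 35% G + C, 40.2% were well above background on 4 or more arrays, of 1887 between 40 and 45% it was 79.2%, and of 266 above 55% it was 98.1%. The median level went from -6.68 to -3.24 to -0.25 over the same bins. The mRNA probes moved the same way but from a higher start, from 66.0% at up to 35% G + C to 98.4% above 55%. At 45 to 50% G + C the detected shares of interval and mRNA probes were 90.3 and 91.0%, while the median levels were -1.99 and -0.97. Base composition thus moved with the detected share in every class, and its part in the difference between classes was not tested beyond these bins.

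**Figure D1:**
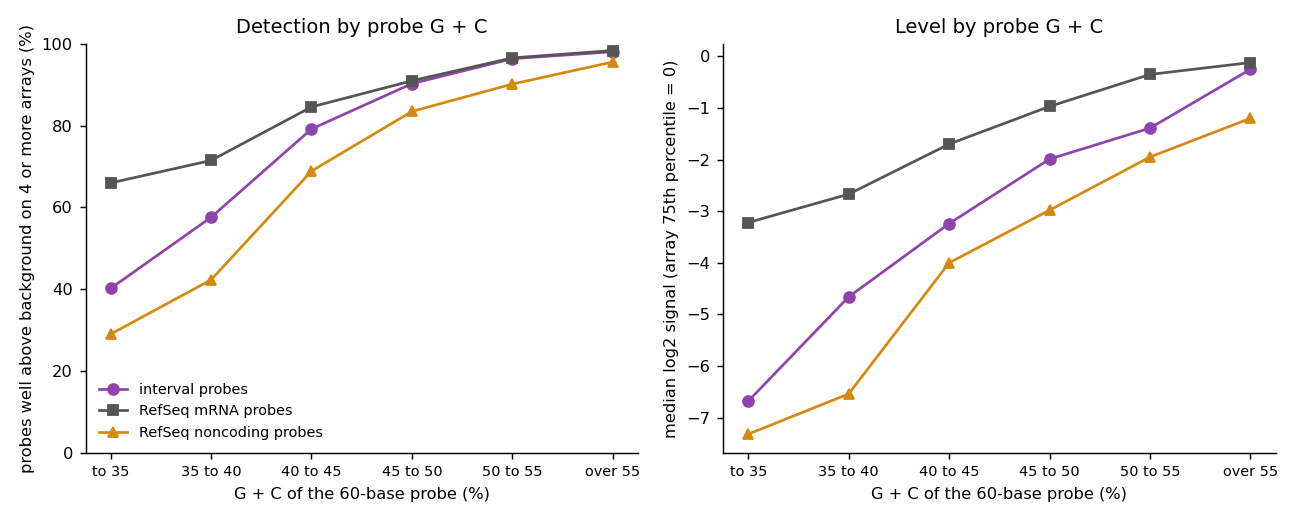
Share of probes well above background on 4 or more arrays (left) and median log2 signal relative to the array's 75th percentile (right), by G + C of the 60-base probe, for interval probes, RefSeq mRNA probes and RefSeq noncoding probes (known and predicted together). All 3 lines rise; interval probes lie between the others, at 40.2% detected in the lowest bin and 98.1% in the highest.

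The detected share was higher among longer intervals. The share was 67.7% of 894 intervals up to 1000 bp, 71.0% of 435 up to 5000 bp, 87.5% of 946 up to 20000 bp and 86.4% of 818 beyond. The median level was -3.70, -3.57, -1.83 and -1.80 in the same order, and the median G + C of the probe was 45% in all 4 bins. Longer intervals also had more probes, from a mean of 1.03 to 1.63, from which the brightest was taken. Another split came from the identifiers: 348 intervals had a start and an end that were both multiples of 25 bp, and 91.4% of these were detected, against 77.6% of the other 2745. Their median lengths were 20888 and 5429 bp and their median levels -1.0 and -2.87. What the rounded ends mark is not given in the sources used here. By chromosome, the detected share ranged from 72.2% of 198 intervals on chromosome 3 to 86.4% of 169 on chromosome 17.

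The 6 brightest intervals had mean log2 levels from 6.65 down to 6.17, all on a forward probe. The brightest, chr17:39982023-39983277, lay 2129 bp from the probe of AY036118, listed as a noncoding RNA. On the MHCII-high arrays the log2 levels were 6.89, 6.48, 6.50 and 6.90, and on the MHCII-low arrays 6.54, 6.60, 6.65 and 6.67. The arrays of both groups lay between 6.48 and 6.90 and overlapped. The dimmest of the 6, chr7:82902248-82955248, held the probe of the noncoding RNA AU020206. None of the 6 was called between the groups, with log2 differences from -0.11 to 0.14 and adjusted p from 0.678 to 0.98. Probe levels of different sequence are not comparable as amounts of RNA, so this order is one of signal.

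Where an interval had probes on both strands, neither strand was the brighter one in general. The forward probe was brighter in 414 of 812 intervals (51.0%), and in 50.6% of those with at least 1 strand well above background on 4 or more arrays. Both strands were detected in 543 intervals (66.9%), 1 strand alone in 28.0% (the forward one in 120) and neither in 42. Within an interval the order was stable: the same strand was the brighter one on all 8 arrays in 649 of 812 (79.9%). The levels were far apart, with a median absolute difference of 2.22 on the log2 scale, and 53.0% of pairs differed by more than 4-fold. Across intervals the forward and reverse levels correlated at r = 0.36 (812 pairs, which share arrays and are no replicates). In the 188 pairs whose 2 probes shared bases, r was 0.66 and the median difference 1.43, and in the other 624 r was 0.27 and the median difference 2.60.

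Probes of 1 strand also differed widely. Over all pairs of mapped probes of an interval, 965 pairs on opposite strands differed by a median of 2.22 and 329 pairs on the same strand by 1.97. These medians mix unlike distances, since only 3 same-strand pairs lay up to 59 bp apart, against 215 on opposite strands. For opposite strands the median rose with the distance between probe starts, from 1.40 in those 215 pairs to 2.04 in 119 at 59 to 200 bp. It was 2.50 in 201 pairs at 200 to 1000 bp, 2.67 in 174 up to 5000 bp, 3.05 in 164 up to 20000 bp and 3.48 in 92 beyond. For the same strand it was 1.67 in 93 pairs at 59 to 200 bp and 1.99 in 70 at 200 to 1000 bp, then 1.92 in 73 up to 5000 bp, 3.25 in 53 up to 20000 bp and 1.73 in 37 beyond, with no steady rise. The median difference in G + C between 2 probes of a pair was 5 points in both kinds. On opposite strands it too rose with distance, from 1.67 points up to 59 bp to 6.67 beyond 20000 bp. Distance and base composition thus moved together there, and the part of each was not tested. Per the labels' protocols, RNA was converted to amplified cDNA that was then labelled chemically, and whether the labelled product keeps the strand is not given in the sources used here. A brighter forward probe therefore cannot be read as a transcript of the forward strand.

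**Figure D2:**
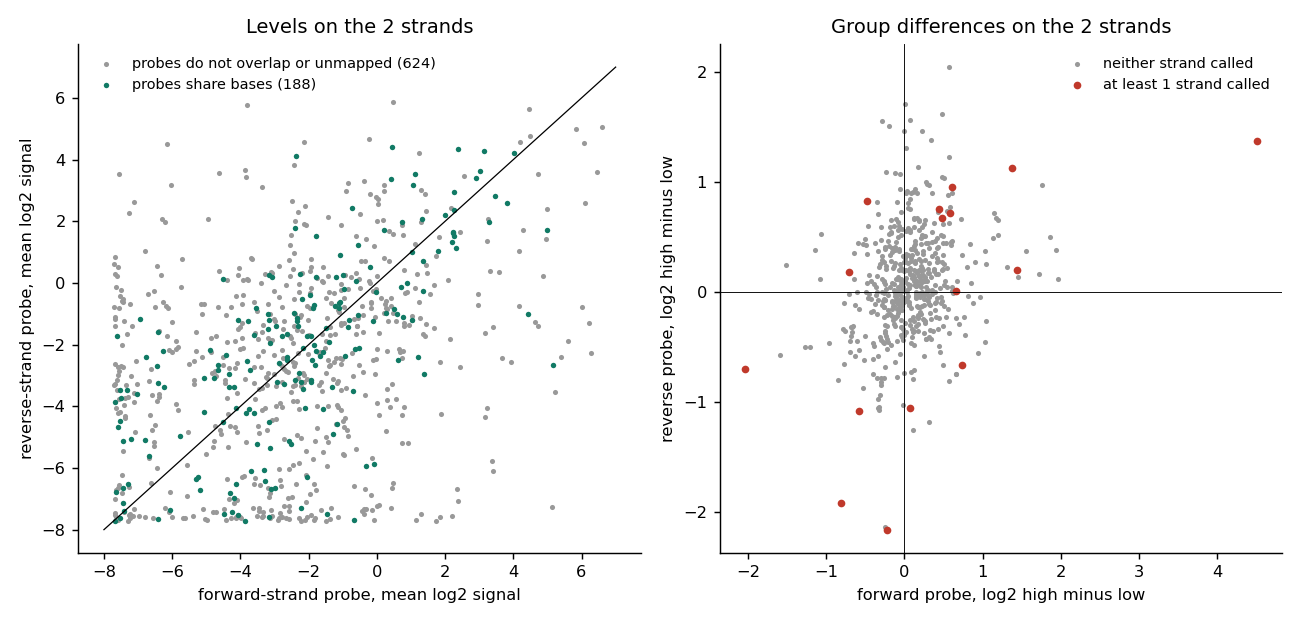
Left, mean log2 signal over the 8 arrays of the brightest forward probe (x) and reverse probe (y) of 812 intervals, with probe pairs that share bases in green and the diagonal drawn; right, log2 difference of MHCII-high minus MHCII-low for the forward (x) and reverse (y) probe of the 543 intervals with both strands detected, with the 16 intervals called on at least 1 strand in red. The levels scatter on both sides of the diagonal, and 12 of the 16 red points have the same sign on both axes.

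The comparison of MHCII-high with MHCII-low asked which intervals differ between the 2 macrophage subsets. Of 2449 tested intervals, 63 (2.57%) passed an adjusted p of 0.05 in limma, fitted and adjusted over 27440 features; such features are called below. The background was 1386 called of all 27440, or 5.05%; whether the 2 shares differ was not tested. Higher in MHCII-high were 45 intervals (1.84%, background 2.73%) and lower 18 (0.735%, background 2.32%). Of the called, 35 were higher and 11 lower by at least 2-fold. The median log2 difference of the tested intervals was 0.05, and 0.0012 over all features; the median absolute difference was 0.28 against 0.27, at median levels of -1.95 and -1.27. The median standard error was 0.24 for intervals and 0.22 for all features. Groups did not overlap in 241 intervals (9.84%, 159 higher and 82 lower), against 14.5% of all features, and in all 63 called ones. The 63 merged into 62 stretches of genome, and 29 overlapped some other interval.

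The counts were sensitive to the arrays used. Of the 8 arrays on the slide, the first row had 1 MHCII-high array and 3 MHCII-low arrays, and the second row had 3 and 1. With this row as a block, 25 intervals were higher and 6 lower, of which 27 in all were among the 63. Within row 1 the 45 higher intervals had a median difference of 1.32 and within row 2 of 1.49, and the 18 lower ones -1.09 and -1.24. Since the groups do not overlap in any called interval, the signs within the rows were fixed and show no stability. Without the array high 20439 the counts were 24 and 8, without low 20435 they were 29 and 11, and without high 20442 the lower count was 9.

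Called intervals differed in how many arrays measured them. In 36 of the 45 higher and 15 of the 18 lower ones the probe was well above background on all 8 arrays. In 8 higher ones it was marked on every MHCII-high array and no MHCII-low array, and in 1 lower one the reverse. The other 3 called intervals were marked on all arrays of the brighter group and on 1 to 3 of the dimmer group. An interval marked in 1 group only passes the filter only through its bright group and had to differ, so for these only a bound of the fold is given. It is the bright group's mean over the dim group's mean. Each dim array is first raised to its lowest signal marked as well above background (-5.56 to -5.28 over the arrays). The bound rests on the scanner software's background subtraction and is no bound under another correction. The adjusted p beside such a bound belongs to the fit and is given as a description, not as support. The background correction sets how far down the dim arrays reach. With normexp in place of the scanner software's subtraction, the 9 largest increases shrank from between 2.59 and 5.09 to between 0.76 and 2.02 on the log2 scale, and all stayed called. For most of the intervals given a bound, the normexp fold was below it.

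**Figure D3:**
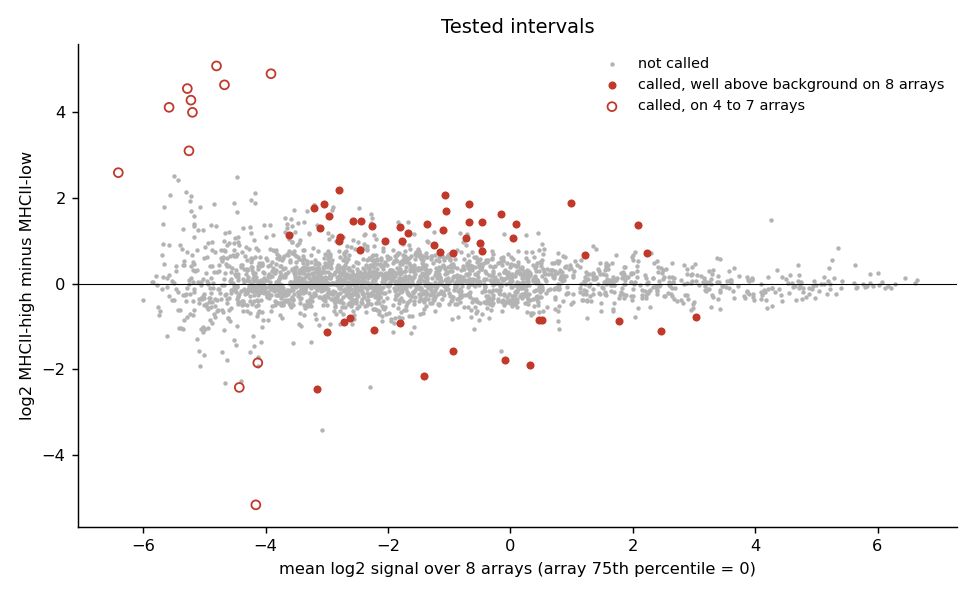
Log2 difference of MHCII-high minus MHCII-low (y) against the mean log2 signal over the 8 arrays (x) for the 2449 tested intervals; red are the 63 called ones, open where the probe was well above background on 4 to 7 arrays only. The open points lie at mean levels of -3.91 or lower and hold the largest fitted differences in both directions.

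Among the increases, the largest fitted difference was in chr10:94848446-94874121, which held the probe of Socs2, a gene for a suppressor of cytokine signalling. Its log2 levels stood at -3.0, -2.30, -1.94 and -1.78 in MHCII-high and at -7.53, -7.45, -7.42 and -6.98 in MHCII-low. The forward probe was marked on all MHCII-high and no MHCII-low arrays. By the scanner software's subtraction the signal was at least 8.72-fold higher in MHCII-high (limma adjusted p = 0.000138). Over the alternative runs the smallest log2 difference was 1.7. The probe of Socs2 itself had a log2 difference of 0.76 and an adjusted p of 0.0628, which missed the threshold.

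The reverse probe of chr4:146965675-146979325, which lay 6370 bp from Zfp985 and 6728 bp from Zfp979, both named as zinc finger genes, was also high. Array by array, log2 levels of -2.29, -1.63, -1.17 and -0.75 in MHCII-high stood beside -6.16, -4.62, -7.44 and -7.24 in MHCII-low. It was marked on all MHCII-high arrays and on 1 MHCII-low array, and the other 3 were below detection, so the size of the difference was not measured (fitted log2 difference 4.90, adjusted p = 0.0055, limma). The probe passed the filter only through the MHCII-high arrays, so this p is a description, not support. The forward probe was marked on 2 arrays, and it is taken up with the strands below. Zfp985 had a log2 difference of 0.04 and was not called.

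Next came chr13:3477100-3497843, which held the probe of the noncoding RNA 2810429I04Rik. The log2 levels were -2.99, -2.21, -2.28 and -1.91 on the MHCII-high arrays and -5.46, -7.62, -7.61 and -7.28 on the MHCII-low arrays. No MHCII-low array was marked, and by the scanner software's subtraction the signal was at least 8.18-fold higher in MHCII-high (adjusted p = 0.00311, limma). The array low 20435 stood above the other MHCII-low arrays. 2810429I04Rik itself had a log2 difference of 0.06.

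In chr5:144517700-144526071, whose probe is printed in the first set, the MHCII-high arrays were tight. On the MHCII-high arrays the log2 levels were -3.36, -3.03, -3.04 and -2.56, and on the MHCII-low arrays -7.15, -7.77, -7.66 and -7.64. By the scanner software's subtraction the fold was at least 5.21 (adjusted p = 0.000113, limma). This interval held the probe of D130017N08Rik, a noncoding RNA with a log2 difference of -0.08. Of its 3 probes, the forward one was marked on 2 arrays only, standing at -4.20 and -3.98 on high 20436 and high 20439 and between -7.44 and -7.23 on the other 6.

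Another increase, chr5:106126051-106128392, lay between Lrrc8c and Lrrc8d, genes for subunits of the volume-regulated anion channel, 34746 bp from the probe of Lrrc8d and 88500 bp from that of Lrrc8c. Its log2 levels stood at -3.77, -3.26, -2.67 and -2.60 in MHCII-high and at -7.47, -7.44, -7.27 and -7.28 in MHCII-low. By the scanner software's subtraction the fold was at least 4.94 (adjusted p = 0.000265, limma). The overlapping interval chr5:106121842-106127192 was called on another probe, on the forward strand and well above background on all 8 arrays. Array by array, log2 levels of -0.19, 0.27, 0.29 and -0.19 in MHCII-high stood beside -1.37, -1.77, -1.46 and -0.98 in MHCII-low. That difference was 1.44 ± 0.21 (SE, n = 4 and 4; limma adjusted p = 0.00931), while the reverse probe of the same interval had 0.20 and was not called. Lrrc8c had a log2 difference of 0.72 (adjusted p = 0.0742) and Lrrc8d of 0.04, neither called.

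The next 4 increases also rested on arrays of the bright group alone. By the scanner software's subtraction the signal was at least 3.64-fold higher in chr7:86651948-86675223, which lay 2060 bp from Mir9-3hg, the host RNA of a microRNA. It was at least 4.56-fold higher in chr5:31883451-31884082, at least 3.21-fold in chr4:46583780-46614788 and at least 1.21-fold in chr14:77261377-77274982. Their adjusted p-values in limma were 0.00202, 0.00234, 0.00984 and 0.000492. The interval on chromosome 4 held the probe of Coro2a, a gene for an actin-binding coronin, which was called too, at 1.73 ± 0.22 (SE). The interval on chromosome 14 is the dimmest tested: its MHCII-high arrays stood between -5.43 and -4.65, just above the detection floors.

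The smallest of the 10, chr4:115639749-115641787, was the largest increase measured with all 8 arrays marked. The log2 levels were -2.49, -1.93, -1.48 and -0.95 on the MHCII-high arrays and -4.0, -3.62, -3.90 and -4.05 on the MHCII-low arrays. The groups did not overlap, and the difference was 2.18 ± 0.31 (SE, n = 4 and 4; limma adjusted p = 0.00816), a fold of 4.53 with a 95% interval from 2.78 to 7.39. The nearest named gene with a tested probe, Faah, for fatty acid amide hydrolase, lay 29047 bp away at a log2 difference of 0.15. Its fold too depends on the background correction, since normexp gave a log2 difference of 1.23.

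**Figure D4:**
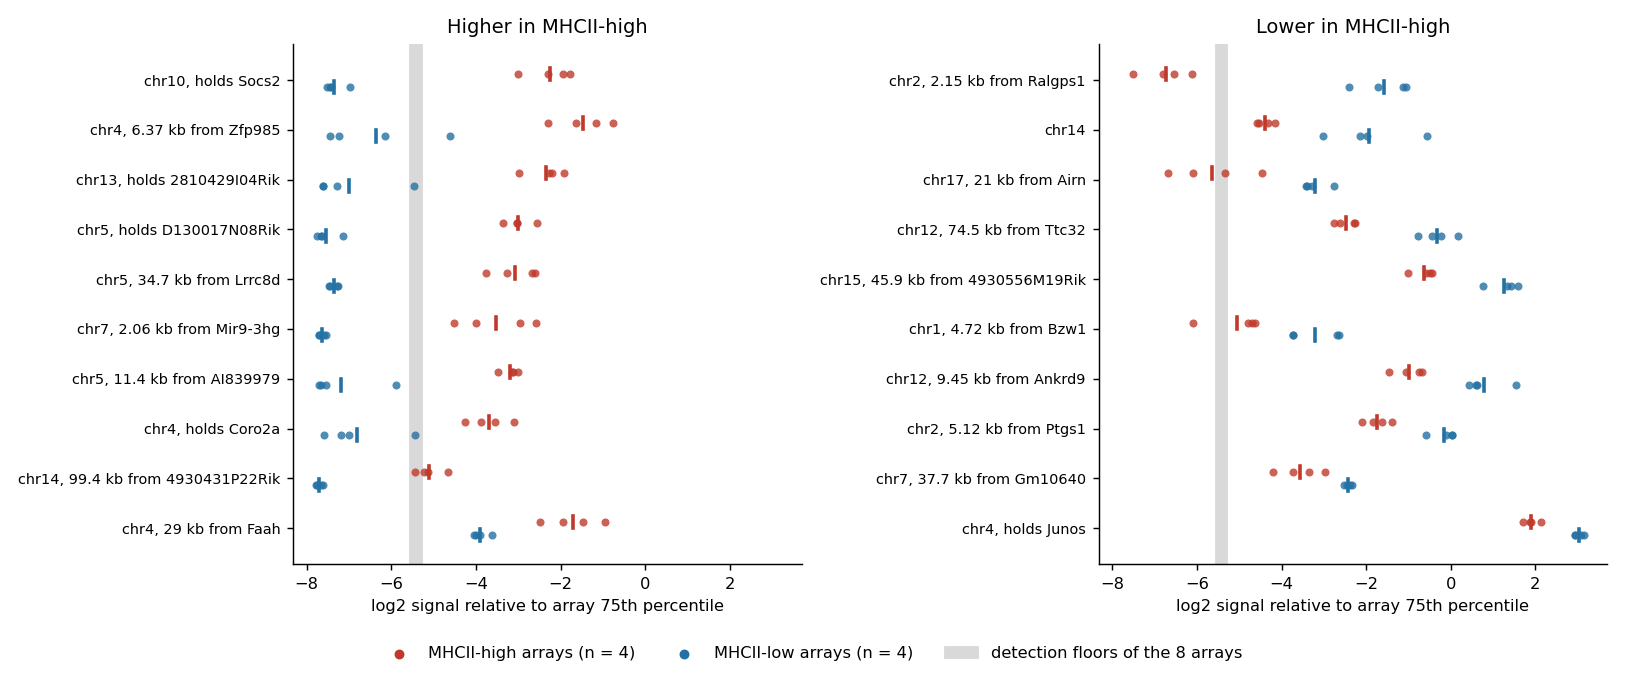
Log2 signal relative to the array's 75th percentile for the 10 largest increases (left) and decreases (right), with 1 point per array, MHCII-high in red and MHCII-low in blue, and a bar at each group mean (n = 4 each); the grey band spans the detection floors of the 8 arrays. Intervals are labelled by chromosome and the nearest named gene probe. The groups do not overlap in any of the 20, and 8 of the increases have every MHCII-low point below or inside the band.

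The largest fitted decrease was in chr2:32960372-32986870, on a reverse probe at the start of the interval. On the MHCII-high arrays the log2 levels were -7.51, -6.80, -6.54 and -6.12, and on the MHCII-low arrays -2.41, -1.12, -1.71 and -1.05. The MHCII-low arrays were all marked and the MHCII-high arrays not. By the scanner software's subtraction the signal was at least 14.4-fold lower in MHCII-high (adjusted p = 0.000584, limma). With normexp the log2 difference was -1.96, a smaller fold than that. Ralgps1, a gene for a guanine nucleotide exchange factor with a probe 2150 bp away, had a log2 difference of 0.14 and was not called.

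Decreases with all 8 arrays marked are measured on both sides. In chr12:9117250-9128800 the reverse probe fell by 2.16 on the log2 scale. Its log2 levels stood at -2.28, -2.27, -2.77 and -2.61 in MHCII-high and at -0.22, -0.45, 0.17 and -0.78 in MHCII-low. The standard error was 0.23 and the limma adjusted p 0.00312, and the forward probe sharing 31 bases with it is taken up below; the mean over both probes gave -1.20. In chr15:10697243-10699102, whose nearest named gene probes on both sides belong to noncoding RNAs, the difference was -1.91 ± 0.22 (SE, n = 4 and 4; limma adjusted p = 0.00405). Array by array, log2 levels of -0.44, -0.50, -0.59 and -1.01 in MHCII-high stood beside 1.32, 1.42, 1.59 and 0.76 in MHCII-low. Both intervals stayed called under every alternative run, with adjusted p up to 0.021 and 0.0187.

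In chr2:36112819-36114110, 5116 bp from the probe of Ptgs1, the gene for cyclooxygenase 1 in prostaglandin synthesis, interval and gene were both lower. The log2 levels were -1.38, -1.63, -2.10 and -1.83 on the MHCII-high arrays and 0.03, 0.04, -0.12 and -0.58 on the MHCII-low arrays. The interval's difference was -1.58 ± 0.21 and that of Ptgs1 -1.19 ± 0.20 (SE; limma adjusted p = 0.00657 and 0.0152). The brightest of the 10 largest decreases, chr4:94719930-94825776, held the probe of Junos, a noncoding RNA beside Jun, the gene for a subunit of the transcription factor AP-1. On the MHCII-high arrays the log2 levels were 1.89, 1.88, 2.14 and 1.71, and on the MHCII-low arrays 3.16, 2.93, 2.93 and 3.07. It fell by 1.11 and Junos by 1.07 on the log2 scale (adjusted p = 0.00585 and 0.00807), while Jun, with a probe 2943 bp away, had a difference of -0.23 (adjusted p = 0.503). This call rests on the brightest of the 3 probes: with the mean of all 3 the difference was -0.52 and the adjusted p 0.174.

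In chr17:12965849-12968519 the MHCII-low arrays were all marked and 1 MHCII-high array was. Its log2 levels stood at -5.34, -4.46, -6.68 and -6.10 in MHCII-high and at -2.77, -3.28, -3.40 and -3.42 in MHCII-low. With 3 MHCII-high arrays below detection its size was not measured (fitted log2 difference -2.43, limma adjusted p = 0.0202). This interval too passed the filter only through its bright group, so the p is a description, not support. It lay 21006 bp from Airn, an imprinted noncoding RNA that silences neighbouring genes on the paternal copy; Airn had a difference of -0.09, and Mas1, a receptor gene 65424 bp away on the other side, of 1.18 (adjusted p = 0.0276). The remaining decreases were chr14:43408099-43415349 at -2.47 ± 0.45, chr1:58443698-58449898 at -1.85 ± 0.41, chr12:112224193-112225328 at -1.79 ± 0.28 and chr7:31993375-31999171 at -1.13 ± 0.25 (log2 difference ± SE). Their limma adjusted p-values were 0.0205, 0.041, 0.0123 and 0.0402. With normexp the differences on chromosomes 14, 1 and 7 were -1.35, -0.66 and -0.56, that near Airn was -0.68 and that near Ralgps1 -1.96, all still called. With a block for the row, these 4 and the interval near Airn were no longer called, at adjusted p of 0.0812, 0.0954, 0.0595, 0.145 and 0.0727 in that order. Leaving out a single array also ended calls: any of the 8 for the interval on chromosome 1, any but high 20436 for that on chromosome 7, low 20439, high 20442 or high 20439 for that on chromosome 14, and low 20435, low 20436 or high 20442 for that near Airn.

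Differences of intervals and of their nearest protein-coding genes were most alike where the gene's probe lay inside the interval. Over the 194 tested intervals that held the probe of a protein-coding gene, interval and gene differences correlated at r = 0.41 (Spearman's rho 0.30). At up to 5000 bp r was 0.20 over 350 intervals, at 5000 to 20000 bp 0.05 over 602, at 20000 to 100000 bp 0.07 over 886 and beyond that 0.07 over 417. These values run across intervals on the same arrays, which are no replicates, and overlapping intervals can share a gene. The share of called intervals was 4.64% (9 of 194) with a coding gene probe inside and 3.43, 1.83, 2.71 and 1.68% in the further bins, beside 5.05% of all features. The median levels were -1.02, -1.94, -1.93, -2.05 and -2.19 in the same order. Intervals with the probe inside were thus also brighter, and the part of brightness was not tested. Of the 56 called intervals with a tested coding gene within 100 kb, 37 had the sign of their nearest one. By bin these were 8 of 9 with the probe inside, then 6 of 12, 7 of 11 and 16 of 24. The same share over all tested intervals is not given here, so the 37 is a count without a background. In 8 of the 56 that gene was itself called, 7 times in the same direction. That is 14.3% of the 56, beside 6.25% (127) of the 2032 tested intervals with such a gene; whether the shares differ was not tested. The 4 with the gene's probe inside them held Coro2a, Sh3gl3, Zbtb20 and Prxl2c. The others lay near Pdcd1lg2, Myo1g, Ptgs1 and Mas1, with Mas1 the one of opposite sign. Where the gene's probe lies inside, interval and gene may report 1 transcript, and this was not tested.

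**Figure D5:**
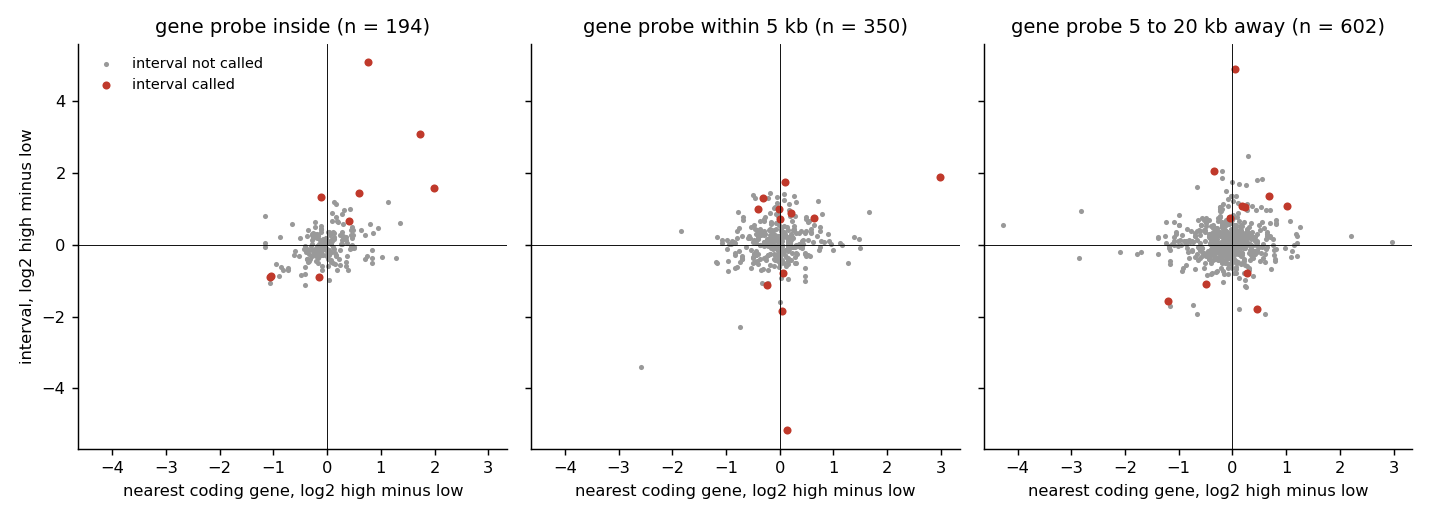
Log2 difference of MHCII-high minus MHCII-low for tested intervals (y) and for the nearest tested protein-coding gene (x), in 3 panels by the distance of the gene's probe; called intervals are red. The points lean upwards in the first panel (r = 0.41) and hardly in the third (r = 0.05).

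Of these 8, the largest difference with all 8 arrays marked was in chr19:29546348-29596479, which lay 816 bp from the probe of Pdcd1lg2, the gene for PD-L2, a ligand of the inhibitory T cell receptor PD-1. Array by array, log2 levels of 1.63, 1.92, 2.01 and 2.16 in MHCII-high stood beside 0.04, 0.34, -0.05 and -0.16 in MHCII-low. The difference was 1.89 ± 0.17 (SE, n = 4 and 4; limma adjusted p = 0.00163), and that of Pdcd1lg2 was 2.99 (adjusted p = 0.00122). A noncoding RNA with a probe inside the interval, A930007I19Rik, had -0.07 and was not called. The interval stayed called under every alternative run, with differences from 1.81 to 1.99. In chr7:89433125-89464275, the interval rose by 1.57 ± 0.31 and Sh3gl3, a gene for an endophilin, by 1.99 (adjusted p = 0.0271 and 0.046), and the interval's call was lost with a block for the row (adjusted p = 0.112) and without any single array but low 20442 and high 20435, and normexp gave 0.87. On the lower side, chr16:43623581-43642715 stood at -0.86 beside Zbtb20, a transcription factor gene, at -1.04, and chr13:64381475-64415350 at -0.88 beside Prxl2c at -1.07. With a block for the row the adjusted p was 0.0803 and 0.139 (limma), so neither was called. A block for the label number also ended both calls. The first also lost its call without low 20439 or high 20439, and the second with array median scaling, with no filter on dim probes and without any single array but high 20435. Some called intervals had a close neighbour that was not called: chr10:98730529-98741718, at 1.76 (adjusted p = 0.00833), lay 485 bp from Dusp6, a phosphatase gene of the MAP kinase pathway with a difference of 0.10, and chr3:37543523-37613073, at 1.0, lay 270 bp from Spry1 at -0.01. These 2 were chosen after their values were seen.

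One interval was called on both strands when each strand was tested as a feature of its own. In that fit 72 of 2992 stranded interval features were called (2.41%), against 4.93% of all 27996 features. The interval was chr11:6421951-6429173, which held the probe of Snhg15, a noncoding host RNA of a small nucleolar RNA. The log2 levels of its forward probe were 2.56, 2.69, 2.78 and 3.04 on the MHCII-high arrays and 1.30, 1.22, 1.57 and 1.48 on the MHCII-low arrays. Those of the reverse probe were 0.16, 0.67, 1.05 and 0.74 on the MHCII-high arrays and -0.52, -0.38, -0.60 and -0.38 on the MHCII-low arrays. On both strands every MHCII-high array lay above every MHCII-low array. The differences were 1.37 ± 0.16 and 1.13 ± 0.20 (SE, n = 4 and 4; limma adjusted p = 0.00412 and 0.0179), and Snhg15 had 1.03 ± 0.14 (adjusted p = 0.00723). Myo1g, a gene for a myosin of blood cells 15337 bp away, had 0.69 (adjusted p = 0.0316). The 2 probes do not overlap, so the interval was measured in 2 places, and the strand term below did not pass (difference of the differences 0.25, adjusted p = 0.704).

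Across the 543 intervals with both strands tested, the forward and reverse differences correlated at r = 0.28 and had the same sign in 331 (61.0%). In the 136 whose probes share bases r was 0.45, and in the rest 0.22. A total of 16 intervals were called on at least 1 strand, 12 of them with the same sign on the other. In 8 of the 16 the called strand was the dimmer one only, and these are not among the 63; the largest 3 follow, chosen after their values were seen. In chr7:134369091-134376366 the forward log2 levels were -4.05, -3.11, -3.35 and -1.96 on the MHCII-high arrays and -7.72, -7.66, -7.63 and -7.50 on the MHCII-low arrays, with the latter at the bottom of the scale. The forward probe was marked on all MHCII-high and no MHCII-low arrays. By the scanner software's subtraction the fold was at least 4.8 (adjusted p = 0.00123, limma). The reverse log2 difference was 1.37 (adjusted p = 0.0715). In chr6:54591416-54597566 the differences were -2.04 (limma adjusted p = 0.0104) and -0.71 (adjusted p = 0.0699), and in chr17:17492400-17507525 -0.81 (adjusted p = 0.569) and -1.93 (adjusted p = 0.0099). The called probes of these intervals were marked on all MHCII-low arrays and on 2 and 3 MHCII-high arrays. They passed the filter only through MHCII-low, so their p-values are descriptions too. In chr12:9117250-9128800 the reverse probe was called at -2.16 and the forward probe, sharing 31 bases with it, stood at -0.23 (adjusted p = 0.672). Its forward log2 levels were -3.22, -2.85, -3.35 and -2.91 on the MHCII-high arrays and -2.98, -2.52, -3.49 and -2.44 on the MHCII-low arrays, which overlap.

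Whether the strands of an interval respond differently was tested on the forward minus reverse level in 770 intervals with at least 1 strand detected. Only 2 of the 770 passed (0.26%), and 92 had an unadjusted p under 0.05. In chr4:146965675-146979325 forward minus reverse was -3.19, -3.76, -4.86 and -5.94 in MHCII-high and -0.10, -0.34, 0.96 and 1.51 in MHCII-low. The difference between the groups was -4.95 ± 0.66 (SE, n = 4 and 4; limma adjusted p = 0.021), carried by the reverse probe described above; the forward log2 levels were -5.48, -5.39, -6.03 and -6.70 on the MHCII-high arrays and -6.26, -4.96, -6.48 and -5.72 on the MHCII-low arrays, which overlap. In chr3:70581406-70614856 forward minus reverse was -1.87, -2.40, -1.90 and -1.51 in MHCII-high and -3.93, -4.24, -4.07 and -3.89 in MHCII-low, a difference of 2.11 ± 0.24 (adjusted p = 0.0113). Its forward probe was marked on 1 array, with a mean of -5.74 in MHCII-high and -7.47 in MHCII-low, and its reverse probe had a difference of -0.38 that was not called. The interval on chromosome 4 reached this test only through the MHCII-high arrays of its reverse probe, so its adjusted p is a description. Both differences rest on a strand that is mostly below detection: with both strands required on 4 or more arrays, 0 of the pairs passed. Without low 20439 or without low 20435 none passed either, without high 20435 there were 6, and with normexp the one on chromosome 3 was lost, at 0.51 (adjusted p = 0.269).

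Intervals beside genes that mark these cells were not called. Within 100 kb of the listed macrophage, dendritic cell and MHC class II genes lay 9 intervals, of which 7 were tested. The nearest, chr3:96074625-96086375, was 2087 bp from Fcgr1, a macrophage receptor for antibodies, and had a log2 difference of 0.60 ± 1.02 (SE; adjusted p = 0.792), while H2bc18, a histone gene with its probe inside, was called at 1.36; 2 more intervals near Fcgr1 had 0.11 and 0.21. An interval 43365 bp from Ccr7, the homing receptor of migrating dendritic cells, chr11:99048975-99062425, had 0.27 ± 0.22, while Ccr7 had 3.53. The log2 levels of this interval were -1.90, -2.17, -1.88 and -1.24 in MHCII-high and -1.82, -2.0, -2.12 and -2.36 in MHCII-low, which overlap. Near Zbtb46, a dendritic cell transcription factor gene with a difference of 1.74, chr2:181024098-181039073 had 0.44 ± 0.26 and chr2:181022680-181027214 was marked on no array. Near Cd74, the invariant chain of MHC class II with 0.89, chr18:60891745-60896311 had 0.98 ± 0.57 and chr18:60906766-60920702 was marked on no array. The interval 94962 bp from Lyz2, the macrophage lysozyme gene, had 0.22.

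For comparison, 39 named long noncoding RNAs were listed from general knowledge. Of these, 32 were tested and 2 were called, both higher in MHCII-high: Snhg15 and Lncpint, a p53-induced RNA, at 1.33 ± 0.24 (adjusted p = 0.021). Of all 27440 features 5.05% were called, and whether the shares differ was not tested. The median difference of the 32 was 0.04. The interval chr6:31078802-31079644, 35879 bp from the Lncpint probe, was called too, at 1.63 (adjusted p = 0.0266). Neat1, the scaffold of nuclear paraspeckles, had 0.77 (adjusted p = 0.169), and Mir155hg, the host RNA of an inflammatory microRNA, had 1.91 ± 1.04 (adjusted p = 0.36); neither was called. Malat1, Mir17hg, Trp53cor1, Hotair, 2900097C17Rik, Cyrano and Gm12840 had no probe under those names.

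The sorted cells carried macrophage markers, and markers of other cells moved with the groups. All 10 macrophage genes were tested, with Csf1r at mean levels of 4.78 and 5.06, and 1 was called, Adgre1, lower in MHCII-high at -1.69. All 7 MHC class II genes were called higher in MHCII-high, as were 9 of 11 dendritic cell genes, beside 2.73% of all features. Irf8 at 0.46 and Xcr1 at 2.71 were higher but not called. The 11 dendritic cell genes had a median difference of 2.71. Their summed log2 levels were 4.96 to 5.55 in MHCII-high and 3.70 to 4.13 in MHCII-low. Of the 11, 10 were well above background on all 8 arrays and Xcr1 on 4, and their part in the interval differences was not tested. Fewer cells of a type and less RNA per cell cannot be told apart here. Of the T cell (5), NK cell (3), neutrophil (4), epithelial (5), acinar (6), fibroblast (4) and endothelial (3) genes, all tested, 1 epithelial gene (Cdh1) was called, higher in MHCII-high. The summed fibroblast level spread from 2.66 to 5.42 among the MHCII-high and from 4.17 to 5.68 among the MHCII-low arrays. Across tested intervals, arrays correlated at r = 0.949 to 0.968 within MHCII-high, 0.939 to 0.971 within MHCII-low and 0.905 to 0.96 between the groups.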

How the data were processed

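RNA from the sorted macrophages was amplified as cDNA, labelled chemically with Cy5 and hybridised to Agilent mouse arrays, per the labels' protocols. The deposited scanner files hold the processed signal as an intensity that was background-subtracted and detrended, with surrogates for dim spots and no dye normalization, per the file headers. Agilent Feature Extraction 11.5.1.1 is named in the submitters' processing notes. A deposited series table holds log2 values of the same arrays, whose processing is not given in the sources used here; each of its columns has a median near 9.38, and it was used as an alternative only. Of the 62976 spots on an array, the 3671 controls were dropped, and saturated spots numbered 0. The number of arrays limits the precision.

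Intensities were put on the log2 scale, scaled by subtracting each array's 75th percentile and then averaged over spots of a probe, without spots flagged as outliers. The brightest probe stood for a gene or interval. Features well above background on at least 4 of 8 arrays were tested with limma 3.58.1 in R 4.3.3, with Benjamini-Hochberg adjustment over all features and a threshold of 0.05. The script was tested on simulated data. Of the interval probes, 91 had no mapped position. Named were the 10 largest called differences in each direction, the 6 brightest intervals, those called on both strands or in strand difference, those within 100 kb of listed marker genes, 2 on each side of the detection limit, and nearest genes. A few items that this rule or the lists name are not reported here. Other named features were chosen after their values were seen. The intervals, gene lists and tests were chosen with earlier results of these data known. Slide and scan time were the same for all 8 arrays and could not be tested as batches; the row on the slide could. The labels do not say what equal label numbers mark, so the main fit did not pair samples by them. Same-numbered samples correlated in their deviations from the group means at 0.190, 0.129, 0.213 and 0.086 for the numbers 20435, 20436, 20439 and 20442. Samples of different numbers lay lower, from -0.173 to 0.075, so the main fit may ignore a real pairing. With the label number as a block, 33 of the 63 called intervals stayed called.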

Additional observations from a re-analysis of the deposited data

Results flagged for a closer look

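In 5 of 88 groups of 4 arrays over the named intervals, 1 array stood far from the others of its group; with the 95% critical value used, chance alone marks about 1 in 20 such groups. In chr13:3477100-3497843 the array low 20435 was at -5.46, above the other MHCII-low arrays. In chr5:31883451-31884082 low 20439 was at -5.88, likewise above its group. In chr1:58443698-58449898 high 20436 was at -6.1, below the other MHCII-high arrays. In chr12:112224193-112225328 low 20436 was at 1.54, above its group. In chr18:60891745-60896311, near Cd74, high 20435 was at -5.62, below its group. All are log2 levels relative to the array's 75th percentile.

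In 2 intervals the strands differed in their response to the group in limma's test of that difference: by 2.11 (forward minus reverse, MHCII-high minus MHCII-low) in chr3:70581406-70614856 and by -4.95 in chr4:146965675-146979325. The forward probes were marked on 1 and 2 arrays, so the sizes were not measured. With both strands required on 4 or more arrays 0 pairs passed, and with the replicate block the adjusted p of the latter was 0.126 (limma).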

How the results depend on the processing

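None of the 25 named called intervals turned its direction under an alternative run. Of these, 16 stayed called under every alternative run, 9 of them marked in 1 group only and so bound to differ, and 9 lost the call under at least 1, of which 8 with a block for the slide row. The 45 higher intervals became 25 with that block and 23 without intervals that overlap another, the latter chosen after seeing the data. The 18 lower ones became 6 and 11. Leaving out each array in turn gave 24 to 44 higher and 8 to 14 lower. The detected share was 86.6% with at least 1 array required and 68.5% with all 8. The forward strand was brighter in 48.1% of pairs with both strands on all 8 arrays, against 50.6%, which crosses an even split. The 2 strand differences became 0 with both strands required on 4 arrays, 1 with normexp and 0 to 6 without single arrays. The cause was not tested, except that stricter requirements leave fewer intervals and a left-out array fewer samples.

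The label number as a replicate block gave 31 higher and 8 lower intervals, 33 of them among the 63 called. Each sample correlated best with its own number, a hint from the data and not the design. In that fit 4 of the 25 named intervals lost their call, and the strand difference on chromosome 4 had an adjusted p of 0.126 (limma). Signal near background limits 330 intervals marked on 4 to 7 arrays only.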
